A study of Mus musculus with 16 samples.

Results

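The genes described here are 7 ligands of the tumour necrosis factor (TNF) superfamily: Tnf, the lymphotoxin genes Lta and Ltb, Fasl, Tnfsf10, Tnfsf8 and Tnfsf14. They were taken by name from a table of read counts for 49671 genes, and each name matched 1 row. RNA was sequenced from natural killer (NK) cells, sorted as live CD45+ CD3- NKp46+ DX5+ cells in lots of 5K to 10K. The cells came from lungs and from the axillary lymph nodes (LN) that drain a mammary tumour. Every mouse was of the FVB/N background, had the genotype Cdh1F/F;Trp53F/F;Foxp3GFP-DTR and carried a transplanted KEP mammary tumour of 100 mm2 in the mammary gland. The Foxp3GFP-DTR allele places the diphtheria toxin receptor in cells that express Foxp3, the lineage factor of regulatory T cells, so the mice given PBS carried it too.

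The 4 groups were lung DT, lung PBS, LN DT and LN PBS, with 4 libraries each. DT mice received 25 µg of diphtheria toxin at T = 0 and again at T = 7, and PBS mice received PBS at the same times; the labels give no unit for T and no age. The design text calls the 4 libraries of a group biological replicates without saying that each came from a separate mouse, and the p-values measure the spread between these libraries. Lungs were digested with Liberase and freed of erythrocytes, while no such step is described for LN, so tissue and preparation cannot be told apart. Mice given DT but lacking the receptor allele are not among the groups, so the toxin itself and the loss of Foxp3-expressing cells cannot be told apart either.

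TNF superfamily ligands are made as membrane proteins that assemble in threes and bind receptors on neighbouring cells, and several are also cut from the surface. Lymphotoxin alpha joins with lymphotoxin beta on the membrane, and the complex binds the lymphotoxin beta receptor on stromal and myeloid cells, a signal needed to build and maintain lymph nodes. NK cells use Fas ligand and TRAIL (the product of Tnfsf10) to kill target cells through death receptors, and secrete TNF when activated. Tnfsf14 encodes LIGHT, which binds the lymphotoxin beta receptor and the receptor HVEM, and Tnfsf8 encodes the ligand of CD30.

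Ltb, Tnf and Lta are neighbours on mouse chromosome 17 within 10913 bases (GRCm38). Ltb lies on the plus strand at chr17:35194439-35196320, Tnf on the minus strand at chr17:35199381-35202007 and Lta on the minus strand at chr17:35203165-35205351. The space between Ltb and Tnf is 3060 bases and that between Tnf and Lta 1157 bases. Tnfsf14 is also on chromosome 17, at chr17:57189492-57194189 (minus), while Fasl is at chr1:161780689-161788495 (minus), Tnfsf10 at chr3:27317028-27342427 (plus) and Tnfsf8 at chr4:63831308-63861347 (minus). All 7 are annotated as protein coding, and the exons of each share 0 bases with exons of another gene, although the library kit does not mark strand. The 250 bases before the RefSeq start of the 3 clustered genes follow, because these neighbours had different patterns over the groups. They are RefSeq sequences (GRCm38.p6) written 5' to 3' in the direction of the gene, from chr17:35194257-35194506 for Ltb (plus), chr17:35205352-35205601 for Lta (minus) and chr17:35202008-35202257 for Tnf (minus). For Ltb the RefSeq start, 35194507, lies inside the gene as annotated by GENCODE, so the last 68 bases printed are within that gene model, while for Lta and Tnf both annotations give the same start. Positions below are counted from the RefSeq start. Capitals mark a match to a loose form of the kappaB motif, the site type bound by NF-kappaB factors.
Ltb: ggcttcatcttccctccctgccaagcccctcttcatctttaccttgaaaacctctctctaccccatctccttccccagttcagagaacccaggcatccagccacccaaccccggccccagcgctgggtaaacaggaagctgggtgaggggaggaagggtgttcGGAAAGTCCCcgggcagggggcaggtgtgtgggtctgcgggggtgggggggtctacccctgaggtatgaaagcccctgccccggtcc
Lta: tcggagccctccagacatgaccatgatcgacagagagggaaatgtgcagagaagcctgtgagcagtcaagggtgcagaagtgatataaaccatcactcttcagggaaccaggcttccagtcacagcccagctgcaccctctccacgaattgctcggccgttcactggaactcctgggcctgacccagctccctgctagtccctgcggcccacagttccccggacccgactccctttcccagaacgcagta
Tnf: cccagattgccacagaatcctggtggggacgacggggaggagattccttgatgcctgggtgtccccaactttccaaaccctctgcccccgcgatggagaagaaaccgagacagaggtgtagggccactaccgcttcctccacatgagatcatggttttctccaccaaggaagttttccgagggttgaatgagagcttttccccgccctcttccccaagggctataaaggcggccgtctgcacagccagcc
The motif searched was GGGA, any 4 letters, then CC, on both strands, from 250 bases before to 50 bases after the start. This form leaves 4 letters free, so a match need not be a site that NF-kappaB binds, and binding was not tested. It matched in Ltb at position -87 (minus strand), in Tnf at position 30 after the start, outside the stretch printed, and in Tnfsf14 at position -51. No match fell in this window of Lta, Fasl, Tnfsf10 or Tnfsf8. Of 32851 promoters of the same length, 20.7% held the motif, so 3 of 7 is a description and not a result about the ligands.

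Levels are CPM, the counts of a library scaled to a common size with edgeR's TMM factors, and differences are log2 values from edgeR's quasi-likelihood test with Benjamini-Hochberg adjustment over 13940 tested genes, with their standard error (SE). All 7 ligands were among the genes tested. A gene is called higher or lower where the adjusted p is under 0.05. Library totals lay between 3929560 and 10744934 counts. Ncr1, which encodes NKp46 of the sort gate, lay between 2457 and 7917 CPM in the 16 libraries. It had 2457 to 4382 CPM in lung DT and 3770 to 5387 CPM in lung PBS. In LN it had 5176 to 7917 CPM with DT and 5326 to 6216 CPM with PBS. Malat1, a nuclear RNA, reached 17160 CPM in lung DT replicate 1 and 18220 CPM in LN DT replicate 1, against at most 8511 CPM in any other library, and results that rest on this pair are also given without them. The share of mitochondrial counts was 3.11 to 4.40% in lung DT against 0.951 to 2.57% in lung PBS, and 1.24 to 4.93% in LN DT against 1.05 to 1.68% in LN PBS. Among LN DT libraries only replicate 4 was at the level of LN PBS.

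**Figure D1:**
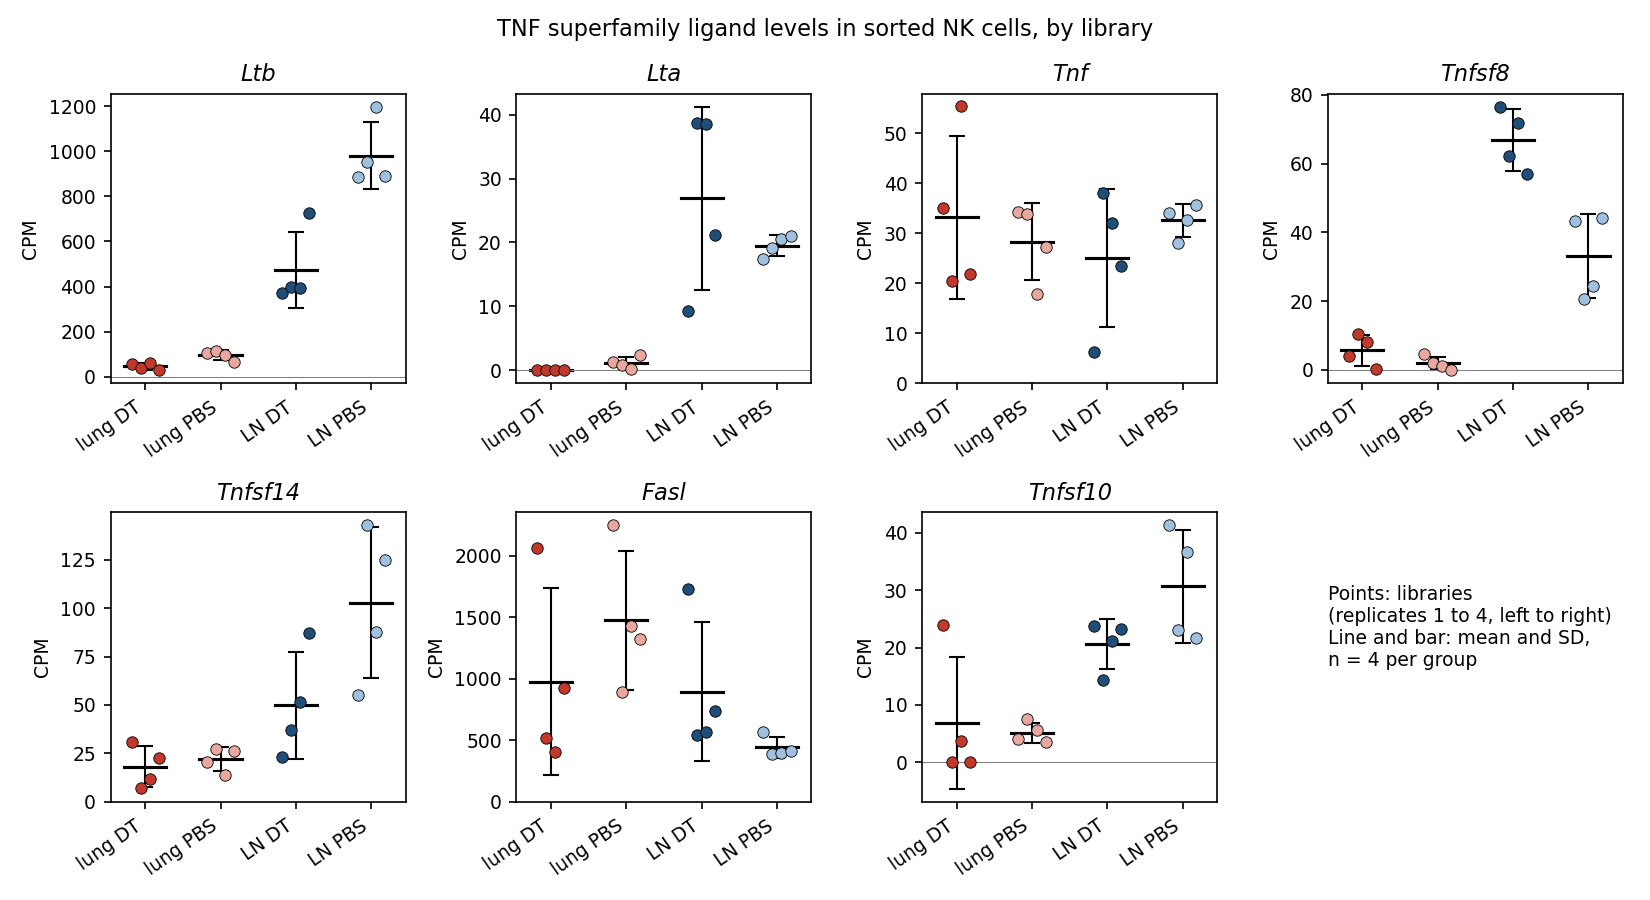
CPM of the 7 ligands (y axes, linear, 1 scale per gene) in each library of lung DT, lung PBS, LN DT and LN PBS; points are libraries, the line is the mean and the bar the SD (n = 4). Ltb is at most 115 CPM in the lung libraries and at least 373 CPM in the LN libraries, Lta is at 0 in all 4 lung DT libraries, and Tnf overlaps between all groups.

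Ltb, the membrane anchor of the lymphotoxin complex, was lower in lung than in LN with either treatment, and lower with DT than with PBS when both tissues were read together. In lung DT libraries it had 55.0, 39.6, 60.4 and 29.2 CPM (replicates 1 to 4), against 105, 115, 95.7 and 67.3 CPM in lung PBS. In LN DT it had 373, 397, 394 and 726 CPM, against 885, 951, 1198 and 889 CPM in LN PBS. Within each tissue every DT library lay below every PBS library, and every lung library lay below every LN library.

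The DT difference in Ltb had nearly the same size in both tissues. In lung it was -1.06 ± 0.29 (SE, n = 4; adjusted p = 0.133) and in LN -1.05 ± 0.28 (adjusted p = 0.177), neither of which passed in edgeR. Averaged over the tissues, Ltb fell by 1.05 ± 0.20 on the log2 scale, a 2.08-fold lower level (adjusted p = 0.0147, 95% interval -1.48 to -0.63). The LN response minus the lung response was 0.00 ± 0.38, with a 95% interval of -0.79 to 0.80. Without LN DT replicate 4, the library with the highest Ltb of its group, the LN difference passed as well at -1.34 (adjusted p = 0.0392). When the mitochondrial share entered the fit as a covariate, the averaged difference was -0.66 and no longer passed, and in that fit 0 of 13940 genes passed.

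Lta encodes the soluble partner, which forms the complex with lymphotoxin beta or acts alone through TNF receptors. No read fell on it in any of the 4 lung DT libraries, against 13, 3, 1 and 19 counts in lung PBS (1.29, 0.833, 0.121 and 2.36 CPM). In LN DT it had 9.25, 38.7, 38.5 and 21.1 CPM, against 17.4, 19.1, 20.5 and 21.04 CPM in LN PBS. The lung libraries did not overlap between treatments, while the LN libraries did, with LN DT replicate 1 below and replicates 2, 3 and 4 above all LN PBS libraries.

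Over the summed libraries a floor of 3 counts puts Lta at least 11.9-fold lower in lung DT than in lung PBS, a bound that covers counting error only. Of the 36 counts in lung PBS 19 came from replicate 4, and without that library the bound was 7.70-fold. The adjusted p of that difference was 0.068 in edgeR, and it was 0.0445 without lung DT replicate 4, 0.0361 without lung PBS replicate 3 and 0.0483 without LN DT replicate 1. In LN the difference was 0.46 ± 0.64 (adjusted p = 0.824). Averaged over the tissues Lta was called lower (adjusted p = 0.0389); this call held in 10 of 24 alternative fits. With the replicate number as a block the value was -2.89 and did not pass (adjusted p = 0.0621). The call was also lost without any 1 of lung DT replicates 2 and 3, lung PBS replicates 1 and 2, LN DT replicates 1, 2 and 3 and all 4 LN PBS replicates (adjusted p from 0.0545 to 0.0868). The LN means were 26.9 ± 14.4 CPM with DT and 19.5 ± 1.63 CPM with PBS (SD), so the negative sign came from lung. The interaction gave an unadjusted p of 0.000223 and an adjusted p of 0.318.

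Tnf, the founding member and an early product of activated NK cells, did not separate the groups. It had 35.01, 20.4, 55.5 and 21.9 CPM in lung DT, against 34.3, 33.9, 17.9 and 27.3 CPM in lung PBS. LN DT libraries had 6.34, 38.2, 32.1 and 23.4 CPM, against 34.1, 27.99, 32.7 and 35.6 CPM in LN PBS. All 4 groups overlapped, and the lowest value of the 16 was that of LN DT replicate 1. The DT difference averaged over tissues was -0.07 ± 0.32 (adjusted p = 0.91, 95% interval -0.74 to 0.59), and lung PBS against LN PBS gave -0.20 ± 0.45 (adjusted p = 0.883, interval -1.14 to 0.73).

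Tnfsf8, the CD30 ligand, was low in lung NK cells with either treatment. It had 4.02, 10.52, 8.03 and 0.262 CPM in lung DT, against 4.57, 1.94, 1.09 and 0 CPM in lung PBS. In LN DT it had 76.6, 62.2, 71.7 and 56.9 CPM, against 43.2, 20.6, 24.5 and 44.1 CPM in LN PBS. Every LN DT library lay above every LN PBS library, and the lung groups overlapped. The LN difference was 1.01 ± 0.76 (adjusted p = 0.637) and the average over tissues 1.29 ± 0.56 (adjusted p = 0.179), so Tnfsf8 did not pass in either.

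Tnfsf14 (LIGHT) had 31.1, 7.26, 11.8 and 22.4 CPM in lung DT, against 20.4, 27.2, 13.8 and 26.3 CPM in lung PBS. In LN DT it had 23.3, 37.2, 51.6 and 87.4 CPM, against 55.3, 143, 87.9 and 125 CPM in LN PBS. LN DT replicates 1, 2 and 3 lay below all LN PBS libraries and replicate 4 within their range. The LN difference was -1.04 ± 0.46 (adjusted p = 0.389) and that in lung -0.27 ± 0.46 (adjusted p = 0.818).

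Fasl, the death ligand that engages Fas, was the most abundant of the 7 in lung when read per length of exon. In CPM it had 2063, 518, 401 and 925 CPM in lung DT, against 2255, 896, 1426 and 1324 CPM in lung PBS. In LN DT it had 1733, 543, 564 and 742 CPM, against 565, 391, 397 and 413 CPM in LN PBS. In each of the 4 groups replicate 1 had the highest value, and the 2 DT libraries numbered 1 are those with high Malat1; whether the library quality plays a part in their Fasl level was not tested.

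The DT difference in Fasl was -0.59 ± 0.47 in lung (adjusted p = 0.572) and 1.02 ± 0.47 in LN (adjusted p = 0.408). The LN response minus the lung response was 1.62 ± 0.66, with an unadjusted p of 0.0258 and an adjusted p of 0.9999. Without both DT libraries numbered 1 the lung difference was -1.34 and passed (adjusted p = 0.0381), and the LN difference was 0.48 (adjusted p = 0.592). LN DT replicate 1 is not in the lung comparison but shares its estimate of spread. With 1 library left out, lung DT replicate 1 included, the lung difference passed in 0 of 16 fits (adjusted p at least 0.131). Without LN DT replicate 1 alone the LN difference was 0.43 (adjusted p = 0.91), so both values turn on these libraries.

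Tnfsf10 (TRAIL) was at most 41.3 CPM in any library. Every lung PBS library lay below every LN PBS library, while the lung DT and LN DT libraries overlapped. Tnfsf10 had 24.0, 0, 3.74 and 0 CPM in lung DT, against 4.07, 7.49, 5.56 and 3.60 CPM in lung PBS. In LN DT it had 23.8, 14.4, 21.2 and 23.2 CPM, against 41.3, 23.0, 36.7 and 21.7 CPM in LN PBS. Lung DT replicate 1 alone held 167 of the 194 counts of its group. The lung difference was 0.43 ± 1.04 (adjusted p = 0.876) with all libraries and -2.11 (adjusted p = 0.215) without that library.

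Counted over the 7 ligands, edgeR called 0 in lung DT against lung PBS, where 0.108% of all tested genes were called, and 0 in LN DT against LN PBS, where 0.0646% were. The interaction called 0 of 7 (0.00717% of all genes). At an unadjusted p under 0.05 there were 2 in lung, 3 in LN and 2 in the interaction. Of all 13940 tested genes, 1068 were higher and 984 lower at this threshold in lung. In LN these counts were 1155 and 491, and in the interaction 401 and 185. DESeq2 called 2, 1 and 1 ligands in the same comparisons, beside 456, 326 and 19 genes over the whole table. With limma-voom 1, 4 and 0 ligands were called, beside 435, 3736 and 0 genes. The average over tissues called 2 of 7, both lower, where 3.9% of all genes were called. DT and PBS libraries were fully separated for 2 of 7 ligands in lung (background 7.88%) and for 2 of 7 in LN (background 8.47%). The median log2 difference of the 7 was -0.27 in lung and -0.38 in LN, beside 0.09 and 0.08 over all tested genes.

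**Figure D2:**
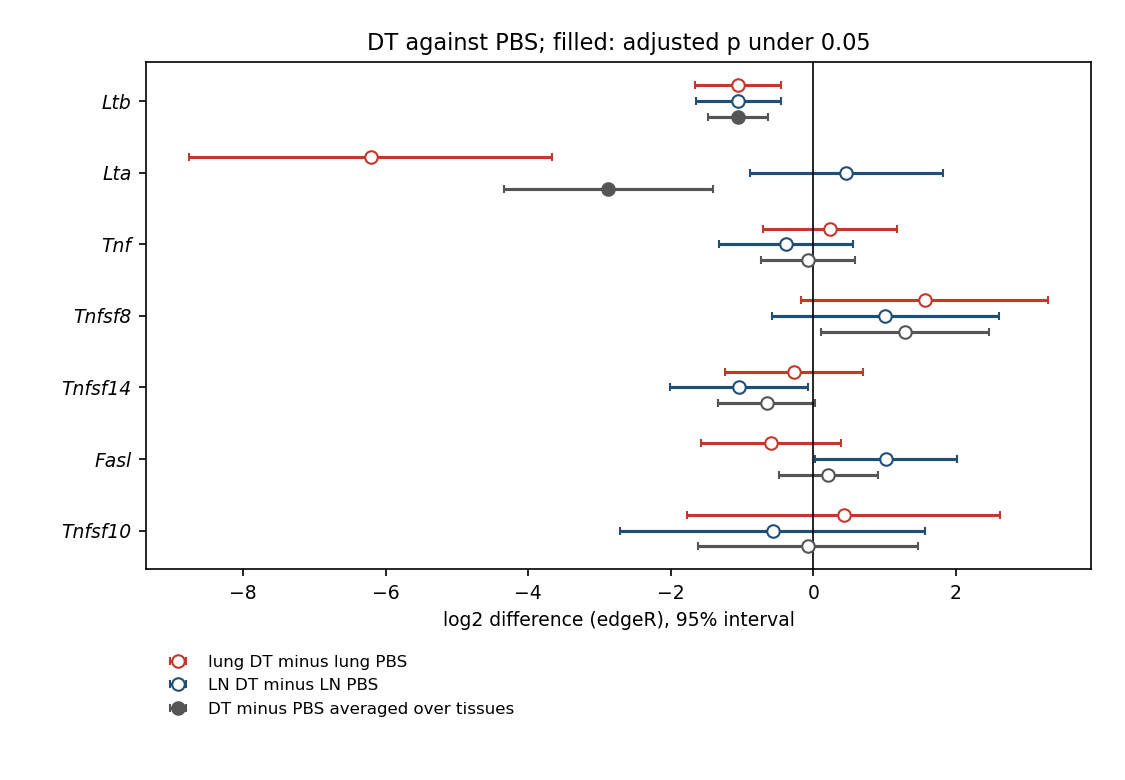
log2 difference of DT against PBS (x axis, edgeR) for the 7 ligands in lung, in LN and averaged over both, with 95% intervals; filled points have an adjusted p under 0.05. Ltb lies near -1.05 in all 3 and is filled for the average; the lung and averaged values of Lta depend on the prior count because lung DT has 0 counts.

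Markers of other cells were read beside these values, since B cells, T cells and other innate lymphoid cells also make lymphotoxin and CD30 ligand, and fewer cells of a type and less RNA per cell cannot be told apart in bulk libraries. The summed level of 9 B cell markers ranged over 97.5 to 899 CPM in LN DT against 62.4 to 125 CPM in LN PBS, and over 11.8 to 145 CPM in lung DT against 10.8 to 93.3 CPM in lung PBS. LN DT replicates 2 and 3, which had 899 and 857 CPM of B cell markers, also had the 2 highest Lta values, while replicate 4 had 97.5 CPM of these markers. The part of these cells in the Lta level was not tested. The summed level of 10 T cell markers was 479 to 646 CPM in LN DT against 557 to 662 CPM in LN PBS, and 174 to 552 CPM in lung DT against 252 to 287 CPM in lung PBS. Other marker sums separated the treatments in a tissue, that of the NK cell markers among them. The sum of 10 NK cell markers was 28180 to 60300 CPM in LN DT against 20700 to 26940 CPM in LN PBS. Gene by gene these markers did not rise as a set in LN, with 7 above 0, 3 below and 0 called. Their median log2 difference was 0.07 in LN, beside 0.08 over all tested genes. In lung the median was -0.52, beside 0.09, with 3 above 0, 7 below and 0 called. In lung PBS the sum was 35250 to 39440 CPM. In lung DT it was 58000 CPM in replicate 1 and 20700 to 28910 CPM in the others. The sum of 6 plasma cell markers was 110 to 401 CPM in LN DT against 36.3 to 52.7 CPM in LN PBS, with Jchain, the joining chain of secreted antibodies, at 201 ± 109 CPM in LN DT and 0.0613 ± 0.0708 CPM in LN PBS; in lung DT the sum was 69.2 to 101 CPM against 36.0 to 234 CPM in lung PBS. The sum of 9 dendritic cell markers was 129 to 198 CPM in lung DT against 66.5 to 104 CPM in lung PBS, and 71.6 to 392.2 CPM in LN DT against 76.6 to 91.95 CPM in LN PBS. Markers of group 3 innate lymphoid and lymphoid tissue inducer cells, 8 in number, summed to 21.3 to 78.8 CPM in LN DT against 59.3 to 139 CPM in LN PBS, and to 4.88 to 22.5 CPM in lung DT against 12.7 to 22.3 CPM in lung PBS. The part of these cells in the ligand differences was not tested.

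More of the ligands passed between the tissues than between the treatments. In mice given DT, 3 of 7 ligands were called lower in lung than in LN and 0 higher, where 6.75% of all tested genes were called in either direction. In mice given PBS, 4 of 7 were called lower and 0 higher, where 3.61% were called. The lung and LN libraries did not overlap for 3 of 7 ligands with DT (background 11.6%) and for 6 of 7 with PBS (background 19.2%). The median log2 difference over the 7 was -1.58 with DT and -2.58 with PBS, beside -0.04 and -0.01 over all genes.

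Ltb averaged 46.0 ± 14.3 CPM in lung DT and 473 ± 169 CPM in LN DT (SD, n = 4 each), a difference of -3.36 ± 0.31 (adjusted p = 5.28e-06). In PBS mice it averaged 95.8 ± 20.6 CPM in lung and 981 ± 148 CPM in LN, also -3.36 ± 0.31 (adjusted p = 4.73e-06). The 2 tissue differences use separate libraries, and both correspond to a level about 10.3-fold and 10.2-fold lower in lung. Lta was at least 277-fold lower in lung DT than in LN DT against the floor of 3 counts (adjusted p = 9.4e-05). In PBS mice Lta differed by -4.04 ± 0.74 (adjusted p = 0.00615), with 36 counts in lung and 674 in LN. Both genes were called in all 24 alternative fits of both comparisons.

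Tnfsf8 differed by -3.54 ± 0.84 between lung DT and LN DT (adjusted p = 0.0167) and by -4.09 ± 0.88 between lung PBS and LN PBS (adjusted p = 0.0124). Tnfsf14 differed by -2.23 ± 0.48 between the PBS groups (adjusted p = 0.0122) and by -1.46 ± 0.47 between the DT groups (adjusted p = 0.07), where it did not pass. Without lung PBS replicate 3 neither gene passed between the PBS groups (adjusted p = 0.0525 for Tnfsf8 and 0.057 for Tnfsf14). Fasl was the only ligand with a positive difference between lung PBS and LN PBS, at 1.74 ± 0.48, and every lung PBS library lay above every LN PBS library, but it did not pass (adjusted p = 0.0521). Between the DT groups Fasl differed by 0.13 ± 0.47 (adjusted p = 0.921). Leaving out lung DT replicate 1, 2 or 3 or LN DT replicate 1, none of which is in that comparison but all of which share its estimate of spread, let Fasl pass between the PBS groups (adjusted p from 0.0113 to 0.0494). For Tnfsf10 the values were -1.58 ± 1.05 with DT (adjusted p = 0.434) and -2.58 ± 1.08 with PBS (adjusted p = 0.224). Without lung DT replicate 1, which held most of its lung DT counts, the difference between the DT groups was -4.04 and passed (adjusted p = 0.0134), and it also passed without both DT libraries numbered 1 (adjusted p = 0.0198). Tnfsf14 also passed between the DT groups without lung DT replicate 1 (-1.83, adjusted p = 0.0228) and without LN DT replicate 1 (-1.69, adjusted p = 0.0423).

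**Figure D3:**
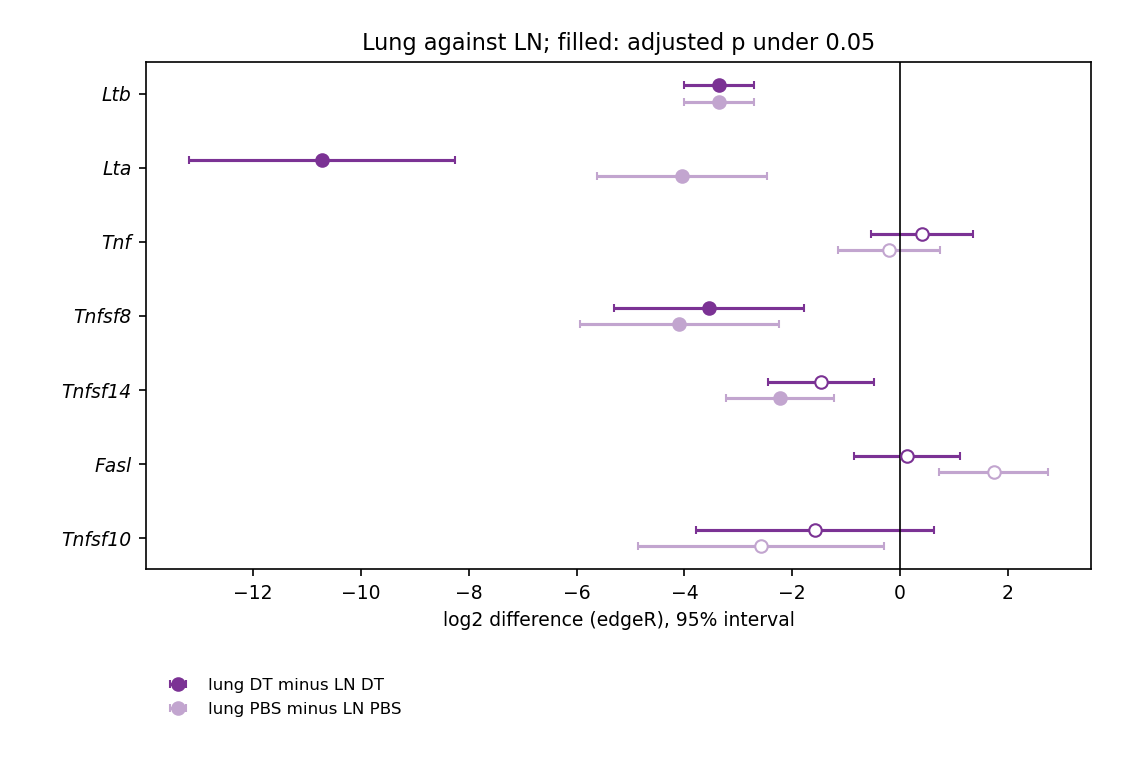
log2 difference of lung against LN (x axis, edgeR) for the 7 ligands in DT and in PBS mice, with 95% intervals; filled points have an adjusted p under 0.05. Ltb lies at -3.36 in both, Lta, Tnfsf8 and Tnfsf14 lie left of 0, Tnf spans 0, and the DT value of Lta depends on the prior count because lung DT has 0 counts.

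Several markers moved with the tissues as well. Il7r, the interleukin 7 receptor found on immature and helper-like innate lymphoid cells, averaged 18.7 ± 8.19 CPM in lung DT and 391 ± 117 CPM in LN DT, and 32.6 ± 12.7 CPM in lung PBS and 403 ± 103 CPM in LN PBS. The summed level of 8 ILC1 markers, Il7r included, was 72.7 to 112 CPM in lung DT against 643 to 1129 CPM in LN DT, and 98.3 to 382 CPM in lung PBS against 513 to 837 CPM in LN PBS. The sum rests mainly on Il7r and Cxcr6, while Tmem176a, Tmem176b, Cd200r1 and Il21r had higher means in lung PBS than in LN PBS. Itga1, which defines ILC1, averaged at most 1.87 CPM in any group. T cell markers summed to 174 to 552 CPM in lung DT against 479 to 646 CPM in LN DT. In PBS mice they summed to 252 to 287 CPM in lung against 557 to 662 CPM in LN. Of the 9 T cell markers tested, 9 lay below 0 in lung DT against LN DT. In lung PBS against LN PBS 5 lay below 0 and 4 above. Cd3e, the gate's negative marker, averaged 1.24 ± 1.29 CPM in lung PBS and 18.9 ± 9.46 CPM in LN PBS. Macrophage and monocyte markers ran the other way, at 456 to 4040 CPM in lung DT against 219 to 412 CPM in LN DT and 955 to 3668 CPM in lung PBS against 312 to 440 CPM in LN PBS. The part of such cells in the ligand levels was not tested.

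Read per length, Fasl was the leading ligand transcript on average in lung with either treatment, and Ltb in LN PBS. In LN DT Fasl led on average only with replicate 1 counted. Levels per kilobase of exon let the genes be compared with each other, and each ligand's share is that of the summed CPM per kb of the 7. Fasl held 85.4 ± 9.83% of the sum in lung DT and 87.9 ± 5.21% in lung PBS, against 51.1 ± 16.3% in LN DT and 23.4 ± 5.00% in LN PBS (SD, n = 4). Ltb held 7.23 ± 4.92% in lung DT and 8.05 ± 3.56% in lung PBS, against 38.03 ± 12.4% in LN DT and 65.8 ± 4.90% in LN PBS. The shares of a whole are tied to each other, so they are given without a test.

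In LN PBS all 4 libraries had a larger share of Ltb (60.96 to 72.4%) than of Fasl (18.8 to 30.4%). In LN DT the ranges overlapped, at 20.7 to 49.97% for Ltb and 40.0 to 75.3% for Fasl. The lead of Fasl in the LN DT mean rested on replicate 1, a library with high Malat1. Its Fasl level was 1733 CPM, against 543 to 742 CPM in the other LN DT libraries. The LN DT medians, replicate 1 included, were 337 CPM per kb for Fasl and 261 for Ltb. The summed level of the 7 was 568 ± 399 CPM per kb in lung DT, 856 ± 294 in lung PBS, 857 ± 267 in LN DT and 979 ± 76.5 in LN PBS. Each of the other ligands held at most 5.75% of the sum on average in any group, the highest being Tnfsf14 in LN PBS.

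**Figure D4:**
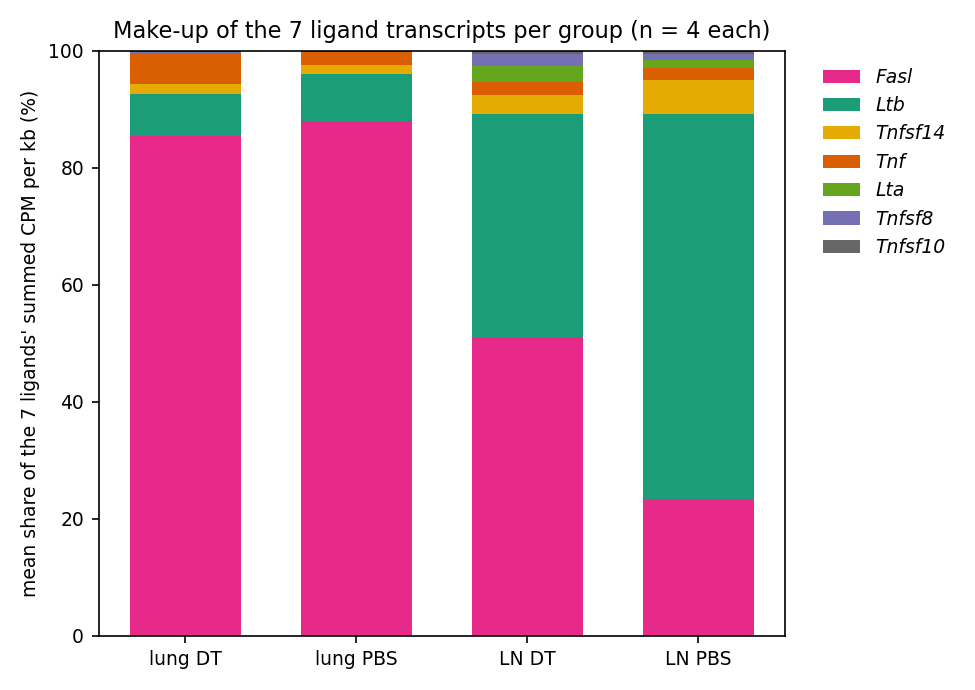
Mean share (y axis, percent) of each ligand in the summed CPM per kb of the 7, for lung DT, lung PBS, LN DT and LN PBS (n = 4 each). Fasl fills 85.4% and 87.9% of the lung DT and lung PBS bars, and 51.1% and 23.4% of the LN DT and LN PBS bars, where Ltb fills 38.03% and 65.8%.

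The ligands did not vary as a block between libraries. Over the 16 libraries Lta and Ltb had a Pearson r of 0.917 in log2 CPM, but -0.156 after the group means were taken out, so the high value is the spacing of the groups. Tnf and Lta, whose genes are adjacent, had 0.001 over all libraries and 0.673 within groups, where LN DT replicate 1 had the lowest LN value of both. These are descriptions over 16 libraries that share tissue, treatment and depth. By the same measure, over 9279 named protein-coding genes with a mean of at least 5 CPM, the genes most like Ltb were Tcf7 (r = 0.966, within groups 0.779), a factor of immature NK cells, and Spint2 (0.954, within groups 0.399). Most like Lta were Cd160 (0.954, within groups 0.299) and Ifit1 (0.949, within groups 0.426), and most like Fasl were Fgl2 (0.916, within groups 0.844) and Zdhhc20 (0.904, within groups 0.881). For Tnf they were Kif3b (0.821, within groups 0.823) and Clcn7 (0.816, within groups 0.805). Without the 2 libraries farthest from the median of Tnf the value for Clcn7 was 0.202 and that for Kif3b 0.656. For Tnfsf8 they were Dhdds (0.951, within groups 0.91) and Oxld1 (0.9, within groups 0.703), for Tnfsf10 Exosc4 (0.947, within groups 0.903) and Zfp507 (0.935, within groups 0.898), and for Tnfsf14 Tbxa2r (0.906, within groups 0.66) and Mrm2 (0.905, within groups 0.836).

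Transcripts of receptors for these ligands were found in the libraries at very different levels per length. Which cells in the libraries they came from was not tested. Of 10 listed receptors, 9 could be tested; Tnfrsf11b, a soluble decoy for TRAIL, had too few counts. Tnfrsf1b, the TNF receptor of lymphocytes, was the highest in all groups, with 44.2 ± 19.0 CPM per kb in lung DT, 46.1 ± 8.74 in lung PBS, 23.4 ± 15.1 in LN DT and 27.3 ± 6.90 in LN PBS. Ltbr, the receptor of the lymphotoxin complex, is known chiefly from stromal and myeloid cells. It had 3.31 ± 3.32 CPM per kb in lung DT, 0.83 ± 1.22 in lung PBS, 0.161 ± 0.158 in LN DT and 0.124 ± 0.139 in LN PBS. Both are named here after their values were seen.

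In edgeR 0 of the 9 receptors passed in lung DT against lung PBS, in LN DT against LN PBS, in the average over tissues or between the PBS groups. At an unadjusted p under 0.05 there were 3, 0, 4 and 2 in these comparisons, DESeq2 called 1, 0, 1 and 0, and limma-voom 0, 0, 2 and 3. Over the whole table DESeq2 called 456, 326, 1591 and 1177 genes, and limma-voom 435, 3736, 3781 and 2296. The median difference of the 9 receptors averaged over tissues was 1.22, beside 0.09 over all tested genes. Between the PBS groups it was 0.24, beside -0.01. Between lung DT and LN DT the median was 0.91, beside -0.04, with 7 of the 9 above 0 and 2 below. There 3 had an unadjusted p under 0.05, and DESeq2 and limma-voom each called 2, beside 1733 and 1804 genes over the whole table. In edgeR, where 6.75% of all tested genes were called, 1 of 9 was called, Tnfrsf22, a decoy receptor for TRAIL in mice. It averaged 0.483 ± 0.539 CPM in lung DT and 10.3 ± 4.27 CPM in LN DT, a difference of -4.36 ± 0.92 (adjusted p = 0.00849), and the libraries did not overlap.

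Among 11 other ligands of the superfamily 6 could be tested, and 2 were called in some comparison. The calls were 1 in the average over tissues and 1 in lung DT against LN DT. In these 3.9% and 6.75% of all tested genes were called. The median difference of the 6 was 1.14 for DT averaged over tissues and 0.50 for lung DT against LN DT. Tnfsf4, the OX40 ligand, rose with DT by 1.62 ± 0.42 averaged over the tissues (adjusted p = 0.0442), opposite to Ltb. It averaged 15.1 ± 4.23 CPM in lung DT and 4.33 ± 2.27 CPM in lung PBS, and 17.1 ± 8.74 CPM in LN DT and 6.17 ± 3.93 CPM in LN PBS. Tnfsf9, the 4-1BB ligand, was 7.17-fold higher in lung DT than in LN DT (2.84 ± 0.59, adjusted p = 0.00806), with 22.9 to 172 CPM in lung DT against 7.39 to 11.3 CPM in LN DT. The highest value was that of lung DT replicate 1, and without it the difference was 1.62, a 3.07-fold higher level (adjusted p = 0.013). Tnfsf4 passed in 4 of 16 fits with a library left out (1.39 to 1.81, adjusted p up to 0.0992).

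Among signalling genes that act at the receptors, edgeR called 1 between the tissues. Of all tested genes, 3.61% were called between the PBS groups and 6.75% between the DT groups. Of the 17 signalling genes tested, 0 were called in lung DT against lung PBS or in LN DT against LN PBS. In the average over tissues 0 were called, and 1 was called between the tissues. At an unadjusted p under 0.05 there were 1, 0 and 0 in the DT comparisons, DESeq2 called 0 in each, and limma-voom 1, 2 and 3. The median difference of the list was 0.04 averaged over tissues and 0.00 between the PBS groups. Between lung PBS and LN PBS 3 of 17 had an unadjusted p under 0.05, DESeq2 called 2 and limma-voom 5. Tnfaip3 encodes A20, a ubiquitin-editing enzyme that dampens NF-kappaB signalling downstream of TNF receptors. It averaged 796 ± 410 CPM in lung DT and 86.7 ± 25.1 CPM in LN DT, and 828 ± 219 CPM in lung PBS and 58.1 ± 29.0 CPM in LN PBS. The differences were 3.20 ± 0.40 (adjusted p = 0.000174) and 3.83 ± 0.41 (adjusted p = 2.97e-05), and the lung and LN libraries did not overlap in either.

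Of 11 genes for ligand shedding and for the decay of cytokine mRNA, 2 were called between the tissues and 0 with DT. Of all tested genes, 3.61% were called between the PBS groups and 6.75% between the DT groups. For lung, LN and the average, 0, 1 and 1 of the 11 had an unadjusted p under 0.05. DESeq2 called 0 of them in each, and limma-voom 0, 2 and 2. The median difference was 0.11 for the average and 0.46 between the PBS groups. Zfp36 encodes tristetraprolin, which binds AU-rich elements such as those of Tnf mRNA and speeds its decay, and Zfp36l2 encodes a relative. Zfp36 averaged 197 ± 105 CPM in lung DT and 55.2 ± 26.0 CPM in LN DT (1.83 ± 0.48, adjusted p = 0.0283), and 258 ± 131 CPM in lung PBS and 61.8 ± 10.1 CPM in LN PBS (2.06 ± 0.48, adjusted p = 0.0225). Zfp36l2 averaged 199 ± 21.6 CPM in lung DT and 60.95 ± 32.5 CPM in LN DT (1.71 ± 0.46, adjusted p = 0.0329), and 349 ± 163 CPM in lung PBS and 63.1 ± 40.3 CPM in LN PBS (2.46 ± 0.47, adjusted p = 0.00588). With a library left out Zfp36 passed in 10 of 16 fits in each comparison, and Zfp36l2 in 11 of 16 between the DT groups and in all 16 between the PBS groups. The sheddases Adam10 and Adam17, which cut Fas ligand and TNF from the membrane, did not pass in any comparison.

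**Figure D5:**
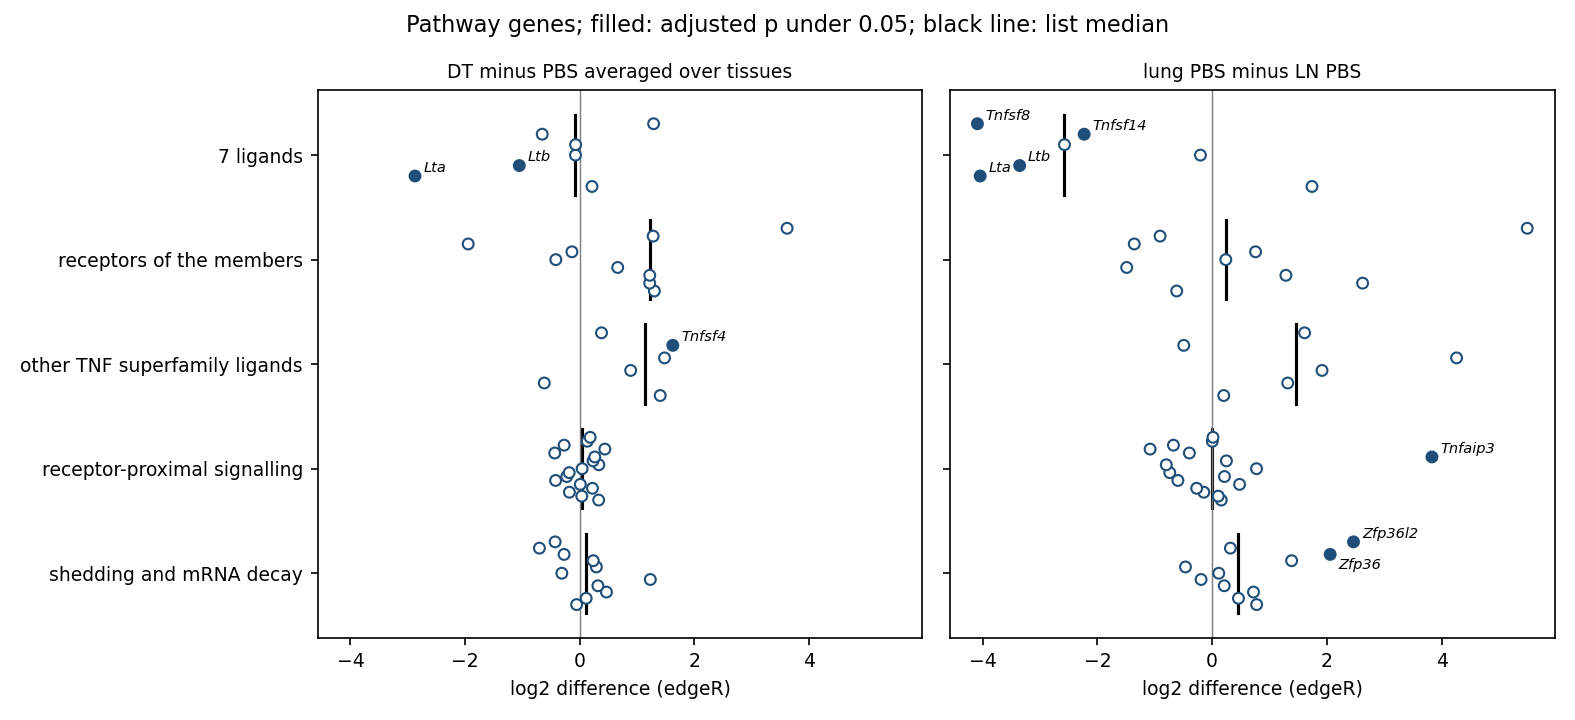
log2 differences (x axes, edgeR) of the 7 ligands and 4 lists of pathway genes for DT against PBS averaged over tissues (left) and lung PBS against LN PBS (right); each point is a gene, filled where the adjusted p is under 0.05, and the black line is the list median. Lta, Ltb and Tnfsf4 are filled on the left; on the right 4 ligands are filled left of 0, and Tnfaip3, Zfp36 and Zfp36l2 are filled right of 0.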

How the data were processed

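NK cell RNA was prepared by the Smart-seq2 method, which does not mark strand. HISAT2 and HTSeq, on GRCm38, made the counts, per the submitters' processing notes, with versions not given in the sources used here. Raw whole-number counts per gene were deposited by the authors for 16 libraries, all used.

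The 7 members and the gene lists were chosen with earlier results of these data known. Genes were kept by filterByExpr of edgeR (minimum count 10, minimum total 15, by group), which left 13940 of 49671. Counts were scaled by TMM and fitted with edgeR 4.0.16 (R 4.3.3; quasi-likelihood, robust) as 4 group means with 12 residual degrees of freedom. The 6 contrasts, each tested with a two-sided F test, compared DT with PBS in lung, in LN and averaged, the LN response with the lung response, and lung with LN in DT and in PBS mice. SEs are those implied by the F statistic. Exon lengths came from GENCODE M21. The procedure was tested on simulated data.

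Alternatives were median-ratio size factors, the replicate number as a block, genes averaging 5 CPM or more, no gene filter, the mitochondrial share as a covariate, DESeq2 1.42.0, limma 3.58.1 voom with quality weights, both DT libraries numbered 1 left out, and each of 16 libraries left out in turn. Leaving out libraries for the pathway genes and for the bound on Lta was chosen after seeing the data. Whether equal numbers pair samples was checked by correlating deviations from group means. Same-numbered lung DT and LN DT libraries gave 0.412, 0.194, 0.23 and 0.184 (numbers 1 to 4), each over 0.1. The labels do not say that these are pairs, and libraries 2 and 3 correlated about as well across numbers (0.181 and 0.229). Every other pair of groups had a value under 0.1. The main fit holds no block, so its tests take all libraries as independent, also between lung DT and LN DT and in the average over tissues. A possible pairing enters only the alternative fits with the replicate number as a block. Named pathway genes are those called in any of the 6 comparisons; likeness is the highest Pearson r of log2 CPM (prior count 2), with 2 genes per member. The Tnfsf12 and Tnfsf13 genes overlap and are not named with values. Floors and the bounds built on them cover only the counting error of the group at 0 counts. The 95% intervals of ratios of summed counts cover the counting error of both groups. The 95% intervals of differences come from the SE and cover the spread between libraries.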

Additional observations from a re-analysis of the deposited data

Results flagged for a closer look

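Single libraries far from the others of their group were looked for in 27 groups of 4, where chance alone gives about 1 group in 20. Ltb in LN DT replicate 4 was 726 CPM, against 373 to 397 CPM in the other LN DT libraries. Fasl in LN DT replicate 1 was 1733 CPM, against 543 to 742 CPM in the others. In LN PBS replicate 1 Fasl was 565 CPM, against 391 to 413 CPM in the others. Tnfsf10 in lung DT replicate 1 was 24.0 CPM, against 0 to 3.74 CPM in the others. LN DT replicate 4 had a mitochondrial share of 1.24%, against 4.01 to 4.93% in the other LN DT libraries; whether this goes with its Ltb level was not tested.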

How the results depend on the processing

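Each of the 6 comparisons was refitted in 24 other ways, and lung DT against LN DT in 1 more. Ltb and Lta were called between lung and LN in all 24 for DT and for PBS mice, Tnfsf8 in 24 (DT) and 23 (PBS), Tnfsf14 in 5 (DT) and 23 (PBS), and Fasl in 0 (DT) and 9 (PBS). For the DT difference averaged over tissues Ltb was called in 23 of 24 and Lta in 10 of 24. The number of ligands called there was 0 instead of 2 with the mitochondrial share as a covariate, a fit in which 0 genes of the whole table passed; mitochondrial share and DT move together, so their parts cannot be told apart. With the replicate number as a block 1 ligand (Ltb) was called there. Between lung DT and LN DT, whose same-numbered libraries deviated together, the block gave 3 ligands, as without it. A fit of the DT libraries alone with the block, chosen after seeing the data, also gave 3. Between lung PBS and LN PBS the block gave 5, with Fasl added. It changed no other count of ligands called.

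In LN DT against LN PBS the count was 1 with DESeq2 and 4 with limma-voom, which called 3736 genes over the whole table where edgeR called 9, and 0 to 1 with a library left out (Ltb without LN DT replicate 4). In lung DT against lung PBS it was 1 without a gene filter, 2 with DESeq2, 1 with limma-voom, 3 without both DT libraries numbered 1, and 0 to 1 with a library left out. The interaction called 1 ligand (Lta) with DESeq2. With a library left out the averaged DT difference called 1 to 2, lung PBS against LN PBS 2 to 5 and lung DT against LN DT 3 to 5; the last was 5 with limma-voom and 5 without both DT libraries numbered 1. The cause of these moves was not tested.

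Signs turned for differences near 0 or resting on few libraries, none of them called with the turned sign. Tnfsf10 in lung DT against lung PBS was -0.72 with the block, -0.17 with the mitochondrial covariate, -3.44 with limma-voom, -2.11 without both DT libraries numbered 1 and -2.11 to 0.83 with a library left out. Its interaction was 0.27 with the block, 2.89 with limma-voom, 1.46 without both and -1.41 to 1.48, and its averaged difference -1.37 to 0.13, with a library left out; limma-voom called the averaged difference lower at -2.00 (adjusted p = 0.0355). The interaction of Ltb was -0.06 with median-ratio size factors, -0.03 with a mean of at least 5 CPM, -0.08 with the covariate, -0.06 with DESeq2, -0.09 with limma-voom and -0.27 to 0.17 with a library left out. Tnfsf14 in lung was 0.30 with the covariate. Averaged over tissues Fasl was -0.20 with the covariate, -0.44 with limma-voom, -0.43 without both and -0.18 to 0.35 with a library left out, and Tnf 0.11, 0.03 without both and -0.26 to 0.02. Tnf in lung was -0.14 to 0.40 with a library left out. Between lung DT and LN DT Tnf was -0.03 with limma-voom, and Fasl -0.02 with limma-voom, -0.02 without both and -0.50 to 0.68 with a library left out. Within a tissue the SE of a ligand's DT difference ran from 0.284 to 1.19 on the log2 scale, so a ligand that missed the threshold is not shown to be the same in both groups.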
